A study of Homo sapiens with 9 samples.

Results

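The genes described here are 9 cancer genes of the short arm of chromosome 3 (3p): VHL, SETD2, BAP1, PBRM1, RASSF1, FHIT, TGFBR2, RHOA and CTNNB1. They were chosen by name and by position, all starting below 62 Mb on chromosome 3, and all 9 were found among the 78894 gene identifiers in the files. The position limit came from the C9ko values of these same data, so the C9ko values of the 9 genes and of their neighbours are given as a description, with no test. RNA sequencing (RNA-seq) measured them in CAL27, an established human line of tongue squamous carcinoma cells. The samples were 3 Control samples and 2 samples each of 3 CRISPR knockout groups, named A2ko, A8ko and C9ko, with all groups grown in the same serum-containing medium and no treatment. The labels name neither the edited sequence nor whether a knockout is a clone or a pool, which limits what each group can stand for.

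The 3p arm is often lost in head and neck carcinoma and in clear cell kidney carcinoma, and several of these genes are lost together with it. VHL is the substrate receptor of a ubiquitin ligase that marks the hypoxia-inducible factors (HIF) for destruction. SETD2, BAP1 and PBRM1 act on chromatin. TGFBR2, RASSF1, RHOA and CTNNB1 act in signalling and adhesion, and CTNNB1 (beta-catenin) is known mainly as an oncogene, although it lies on the same arm.

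The deposited unit is TPM, a gene's share of a library's transcripts, scaled to a fixed sum after correction for transcript length. The A2ko pair of files was the same in every value, as was the A8ko pair. A2ko and A8ko therefore count as 1 library each and have no replicate error. This left 7 distinct libraries. TPM keeps no depth, so the sequencing depth behind each value is unknown. Mitochondrially encoded genes took 23.1% to 26.9% of Control TPM, 25.2% of A2ko, 20.6% of A8ko, and 20.2% and 17.9% of the C9ko libraries. All 10 epithelial marker genes reached 1 TPM. Their summed level was 14699 to 15864 TPM in Control, 6508 in A2ko, 7560 in A8ko and 9869 to 10211 in C9ko. These sums are mostly KRT5 and KRT14, basal keratins that fell by 0.74 and 1.61 log2(TPM + 1) units in C9ko (limma adjusted p = 0.00119 and 8.16e-05). In C9ko 5 of the 10 rose, among them the simple keratins KRT8 (1.19) and KRT18 (1.29), the adhesion protein CDH1 (0.74) and the laminin chain LAMB3 (0.93), and 3 were not called. Of 10 markers of blood, vessel, stromal and muscle cells, 2 reached 1 TPM, and none was at 0 in every library. The summed level of those 10 was 8.45 to 9.90 TPM in Control, 16.4 in A2ko, 7.66 in A8ko and 10.8 to 11.6 in C9ko. The part of these shifts in the results was not tested, and in bulk RNA fewer cells of a type and less RNA per cell cannot be told apart.

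The sequence before the start site of 7 of the 9 genes was found in the RefSeq promoter table (GRCh38.p14). Their 10 windows, each the 250 bases before a start site, held from 0 CpG dinucleotides (FHIT) to 40 (PBRM1), against a median of 11 over all 35116 windows. Windows of SETD2 (chr3:47164114-47164363, minus strand, 21 CpG), TGFBR2 (chr3:30606106-30606355, plus strand, 7 CpG) and FHIT (chr3:60080910-60081159, minus strand, 0 CpG) are shown as examples of differing CpG counts. Whether CpG content goes with the C9ko values was not tested. Capitals mark each CpG, and both TGFBR2 and FHIT have a further window with more CpG, 12 and 11.
SETD2: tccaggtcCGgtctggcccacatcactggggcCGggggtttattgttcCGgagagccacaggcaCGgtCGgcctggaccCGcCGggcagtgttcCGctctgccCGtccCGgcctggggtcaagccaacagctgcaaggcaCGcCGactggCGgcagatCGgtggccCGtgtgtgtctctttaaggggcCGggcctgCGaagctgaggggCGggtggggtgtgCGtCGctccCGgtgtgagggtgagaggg
TGFBR2: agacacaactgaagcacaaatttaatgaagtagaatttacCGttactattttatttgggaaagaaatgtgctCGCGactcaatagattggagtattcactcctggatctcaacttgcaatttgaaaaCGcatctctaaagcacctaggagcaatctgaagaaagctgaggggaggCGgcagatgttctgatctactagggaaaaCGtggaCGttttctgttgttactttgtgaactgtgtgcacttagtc
FHIT: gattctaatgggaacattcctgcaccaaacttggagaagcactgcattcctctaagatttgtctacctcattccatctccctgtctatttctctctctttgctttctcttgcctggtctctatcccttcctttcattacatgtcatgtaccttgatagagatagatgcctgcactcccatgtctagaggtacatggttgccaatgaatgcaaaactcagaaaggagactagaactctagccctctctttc

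All 9 genes were higher in both C9ko libraries than in any Control library. Of all tested genes, 41.1% were. A gene was tested when it reached 1 TPM in at least 2 distinct libraries, which 17100 genes did. All 9 passed, but FHIT reached 1 TPM only in A8ko and in both C9ko libraries, so it passed only through the libraries where it was high. The other 8 passed in every library. The ratio of mean TPM in C9ko to Control ran from 1.69 for SETD2 to 3.08 for TGFBR2, with a median of 2.11 over the 8 genes with a mean of at least 5 TPM. Over all such genes the median ratio was 1.10.

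**Figure D1:**
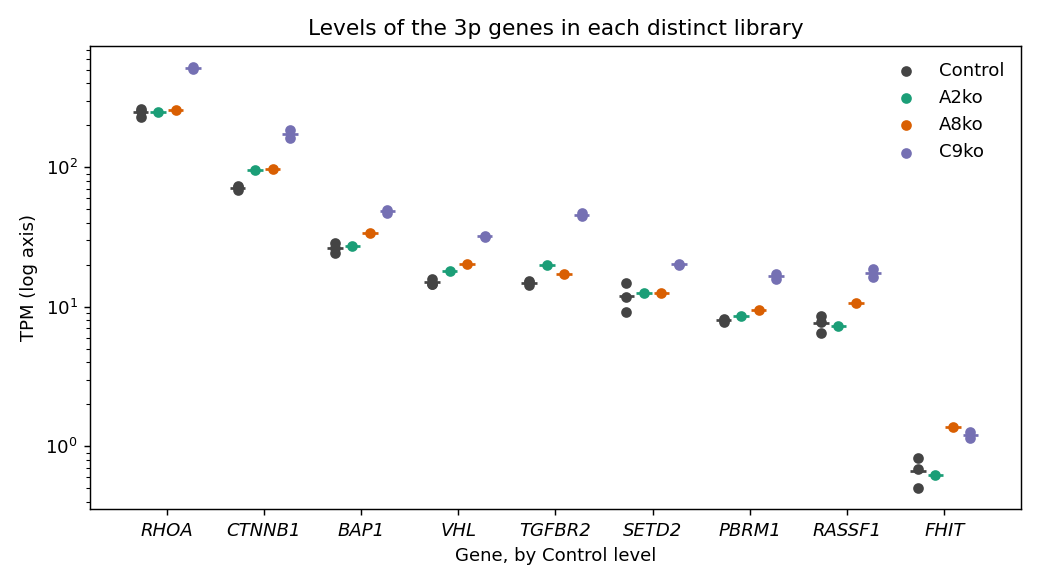
TPM (log axis) of the 9 genes in each of the 7 distinct libraries, with genes ordered by Control level, a point for each library and a bar at each group mean. The C9ko points stand above all Control points for each gene. A2ko and A8ko lie below both C9ko points for each gene but FHIT, whose A8ko point is the highest.

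VHL (ENSG00000134086, chr3:10141008-10152220, plus strand, GRCh38) had Control values of 15.8, 14.7 and 14.6 TPM, an A2ko value of 18.002, an A8ko value of 20.3 and C9ko values of 32.3 and 31.8. The knockout libraries all lay above the Control range, and both C9ko libraries lay above A2ko and A8ko. The Control mean was 15.02 ± 0.683 TPM (SD, n = 3), and the log2(TPM + 1) difference from Control was 1.05 in C9ko, beside 0.25 in A2ko and 0.41 in A8ko.

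Of the 3 chromatin genes, SETD2 is the methyltransferase that trimethylates lysine 36 of histone H3. SETD2 (ENSG00000181555, chr3:47016429-47163967, minus strand) had 14.7, 9.21 and 11.8 TPM in Control and 19.99 and 20.3 TPM in C9ko, with A2ko at 12.6 and A8ko at 12.5 TPM. Control varied most in percent terms for FHIT and SETD2 among the 9 genes, and A2ko and A8ko lay inside the Control range of SETD2. Its log2(TPM + 1) difference in C9ko was 0.73, the smallest after FHIT.

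BAP1 is a deubiquitinase that removes ubiquitin from histone H2A. BAP1 (ENSG00000163930, chr3:52401013-52410350, minus strand) had 26.6, 24.3 and 28.8 TPM in Control and 47.3 and 49.7 TPM in C9ko, with A2ko at 27.3 and A8ko at 33.9 TPM. A2ko lay inside the Control range and A8ko above it. The log2(TPM + 1) difference from Control was 0.85 in C9ko, beside 0.04 in A2ko and 0.34 in A8ko.

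PBRM1, a bromodomain subunit of the PBAF form of the SWI/SNF chromatin remodeller, lies near BAP1 with other genes between them. PBRM1 (ENSG00000163939, chr3:52545352-52685917, minus strand) had 8.20, 7.85 and 7.999 TPM in Control and 15.9 and 17.1 TPM in C9ko, with A2ko at 8.52 and A8ko at 9.52 TPM. Its Control mean was 8.02 ± 0.179 TPM (SD, n = 3), the smallest SD of the 9 genes in percent of the mean (2.24%). The log2(TPM + 1) difference from Control was 0.96 in C9ko, beside 0.08 in A2ko and 0.22 in A8ko. The A2ko value changed sign, to -0.037, when libraries were scaled by the median of ratios. PBRM1 overlaps GNL3 and UQCC5 on the other strand, and whether counting used strand is not given in the sources used here.

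Of the signalling genes, RASSF1 encodes a scaffold that binds the Hippo pathway kinases. RASSF1 (ENSG00000068028, chr3:50329782-50340980, minus strand) had 8.59, 6.53 and 7.77 TPM in Control and 16.3 and 18.6 TPM in C9ko, with A2ko at 7.30 and A8ko at 10.7 TPM. A2ko fell inside the Control range. The log2(TPM + 1) difference was 0.45 in A8ko and 1.10 in C9ko. The values are for the whole gene, so its isoforms, whose promoters differ, were not separated.

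TGFBR2, the type 2 receptor for TGF-beta, had the largest C9ko difference of the 9 genes. TGFBR2 (ENSG00000163513, chr3:30606502-30694142, plus strand) had 15.0, 14.3 and 15.3 TPM in Control and 44.5 and 47.0 TPM in C9ko, with A2ko at 20.1 and A8ko at 17.1 TPM. All knockout libraries were above Control. The log2(TPM + 1) difference from Control was 1.56 in C9ko, beside 0.41 in A2ko and 0.19 in A8ko. It ranked 11th by C9ko difference among the 359 tested genes of chromosome 3 below 62 Mb.

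RHOA, a small GTPase that controls actin and myosin, was the most abundant of the 9. RHOA (ENSG00000067560, chr3:49359145-49412998, minus strand) had 262.0, 252.9 and 231.1 TPM in Control and 524.8 and 510.2 TPM in C9ko, with A2ko at 249.6 and A8ko at 257.6 TPM. A2ko and A8ko lay inside the Control range, and C9ko was 2.08 times the Control mean in TPM. RHOA overlaps TCTA on the other strand, which reached at most 32.7 TPM.

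CTNNB1 joins cadherins to the cytoskeleton and carries the Wnt signal to the nucleus. CTNNB1 (ENSG00000168036, chr3:41194741-41260096, plus strand) had 68.5, 72.9 and 73.0 TPM in Control and 163.3 and 186.5 TPM in C9ko, with A2ko at 96.1 and A8ko at 97.9 TPM. All knockout libraries lay above the Control range. The log2(TPM + 1) difference from Control was 1.28 in C9ko, beside 0.42 in A2ko and 0.45 in A8ko.

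FHIT spans a common fragile site and encodes a hydrolase of dinucleoside polyphosphates. FHIT (ENSG00000189283, chr3:59749310-61251459, minus strand) had 0.682, 0.820 and 0.5003 TPM in Control and 1.26 and 1.14 TPM in C9ko, with A2ko at 0.620 and A8ko at 1.37 TPM. It was the least abundant of the 9 genes, and A8ko was as high as C9ko. The log2(TPM + 1) difference from Control was 0.40 in C9ko, beside -0.04 in A2ko and 0.51 in A8ko. At this level the scale understates a change.

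By mean Control TPM the order was RHOA, CTNNB1, BAP1, VHL, TGFBR2, SETD2, PBRM1, RASSF1 and FHIT. The Control ranges of neighbours in that order overlapped for VHL with TGFBR2, for TGFBR2 with SETD2 and for PBRM1 with RASSF1. In C9ko, among these neighbours, only the ranges of PBRM1 and RASSF1 overlapped, and TGFBR2 lay wholly above VHL. Summed over the 9 genes, Control held 420.1, 403.5 and 390.9 TPM and C9ko 865.5 and 882.3 TPM, with A2ko at 440.1 and A8ko at 460.9.

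In A2ko, 4 of the 9 genes lay above the Control range (VHL, PBRM1, TGFBR2 and CTNNB1), against 50.4% of all tested genes, and none lay below it, against 26.3%. None differed by 0.5 log2 units or more, against 16.6% of tested genes higher and 6.26% lower by that much. At 1 log2 unit these shares were 3.54% and 1.53%. Their median log2(TPM + 1) difference was 0.08, beside 0.12 over all tested genes. Scaling by the median of ratios moved the median of all genes to 0.00 in A2ko, and 3 of the 9 genes were then above and 3 below the Control range. The median of the 9 was then -0.037.

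In A8ko, 7 of the 9 genes lay above the Control range, the exceptions being SETD2 and RHOA, against 46.9% of tested genes above it, and none lay below it, against 26.4%. Of the 359 tested genes of chromosome 3 below 62 Mb, 64.6% lay above the Control range in A8ko and 13.1% below it. FHIT alone differed by at least 0.5 log2 units (10.4% of tested genes were higher by that much and 8.47% lower). None of the 9 differed by 1 log2 unit, as 2.05% of tested genes did upwards and 2.68% downwards. The median log2(TPM + 1) difference of the 9 genes was 0.34, and 0.28 without FHIT, beside 0.09 over all tested genes and 0.21 over the 359 tested genes of chromosome 3 below 62 Mb. With median-of-ratios scaling the median over the 9 was 0.25 and 7 were still above Control. With 1 library, this difference has no replicate check.

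In C9ko, 8 of the 9 genes differed by at least 0.5 log2 units (13.3% of tested genes were higher by that much), and 5 of them by at least 1 log2 unit (3.33%): VHL, RASSF1, TGFBR2, RHOA and CTNNB1. None was lower, against 16.4% of tested genes below the Control range, 5.94% by at least 0.5 and 1.78% by at least 1 log2 unit. The median of the 9 was 1.05 log2 units. It was 0.92 with median-of-ratios scaling and 0.96 without mitochondrially encoded genes, with all 9 above the Control range under both. With these medians under 1, fewer than 5 of the genes passed 1 log2 unit under either. When each Control library was held against the other 2, none of the 9 genes differed by 0.5 log2 units. In all 3 knockouts together, VHL, PBRM1, TGFBR2 and CTNNB1 were above every Control library, as were 17.0% of tested genes. The 3 comparisons share their Control libraries.

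**Figure D2:**
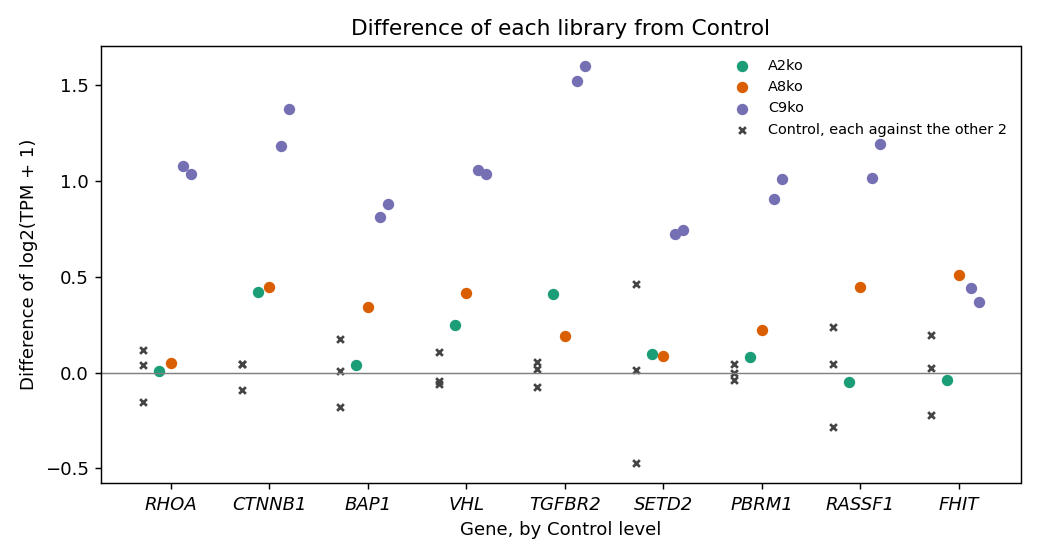
Difference of log2(TPM + 1) from the Control mean for A2ko, A8ko and both C9ko libraries, by gene, with crosses for each Control library against the other 2. All C9ko points lie above every Control cross of their gene, and no Control cross reaches 0.5.

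The 9 genes did not stand alone on their arm. Of 359 tested genes of chromosome 3 below 62 Mb, 334 (93.0%) lay above the Control range in C9ko and 4 below it, and the median log2(TPM + 1) difference of the stretch was 0.86, also without the 9 genes (350 genes). The median ratio of TPM was 1.98 over the 245 stretch genes with a mean of at least 5 TPM. Among the 510 tested genes of chromosome 3 above 62 Mb the median was 0.11 log2 units and 39.6% lay above the Control range. Of the TPM outside mitochondrially encoded genes, the stretch took 1.21% in each Control library and 2.10% and 2.16% in C9ko, with A2ko at 1.25% and A8ko at 1.31%. The median difference of the stretch was 0.12 in A2ko and 0.21 in A8ko, against 0.14 and 0.10 over chromosome 3 above 62 Mb.

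By C9ko difference within the stretch, TGFBR2 ranked 11th of 359, CTNNB1 26th, RASSF1 60th, RHOA 75th, VHL 81st, PBRM1 130th, BAP1 193rd, SETD2 238th and FHIT 319th. In windows of 5 Mb from the tip of 3p to 60 Mb, the median C9ko difference ran from 0.70 to 0.96. It was 0.91 from 60 to 65 Mb and 0.11 from 65 to 70 Mb. Of the 3 protein-coding genes nearest the limit on each side, those just inside it were CFAP20DC, FHIT and PTPRG. CFAP20DC differed by 0.89, FHIT by 0.40 and PTPRG by 1.80, and just outside the limit C3orf14 by 2.07, THOC7 by 0.87 and ATXN7 by 1.06 log2(TPM + 1) units. The nearest tested gene of any type inside the limit, the pseudogene RPL10AP6, differed by -0.16. PTPRG, a receptor tyrosine phosphatase, had 6.34, 6.58 and 6.95 TPM in Control and 25.2 and 25.9 in C9ko. PSMD6, starting at 64.0 Mb, differed by 0.95 and PRICKLE2, starting at 64.1 Mb, by -0.10. ADAMTS9, starting at 64.5 Mb, differed by 1.72 and MAGI1, starting at 65.4 Mb, by 0.14. SLC25A26, starting at 66.1 Mb, differed by 0.03 and LRIG1, starting at 66.4 Mb, by 0.81. Mean Control TPM was 1.31 for PRICKLE2, 0.00926 for ADAMTS9, 0.839 for MAGI1 and 3.11 for LRIG1. The genes from PSMD6 to LRIG1 were chosen after their values were seen.

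**Figure D3:**
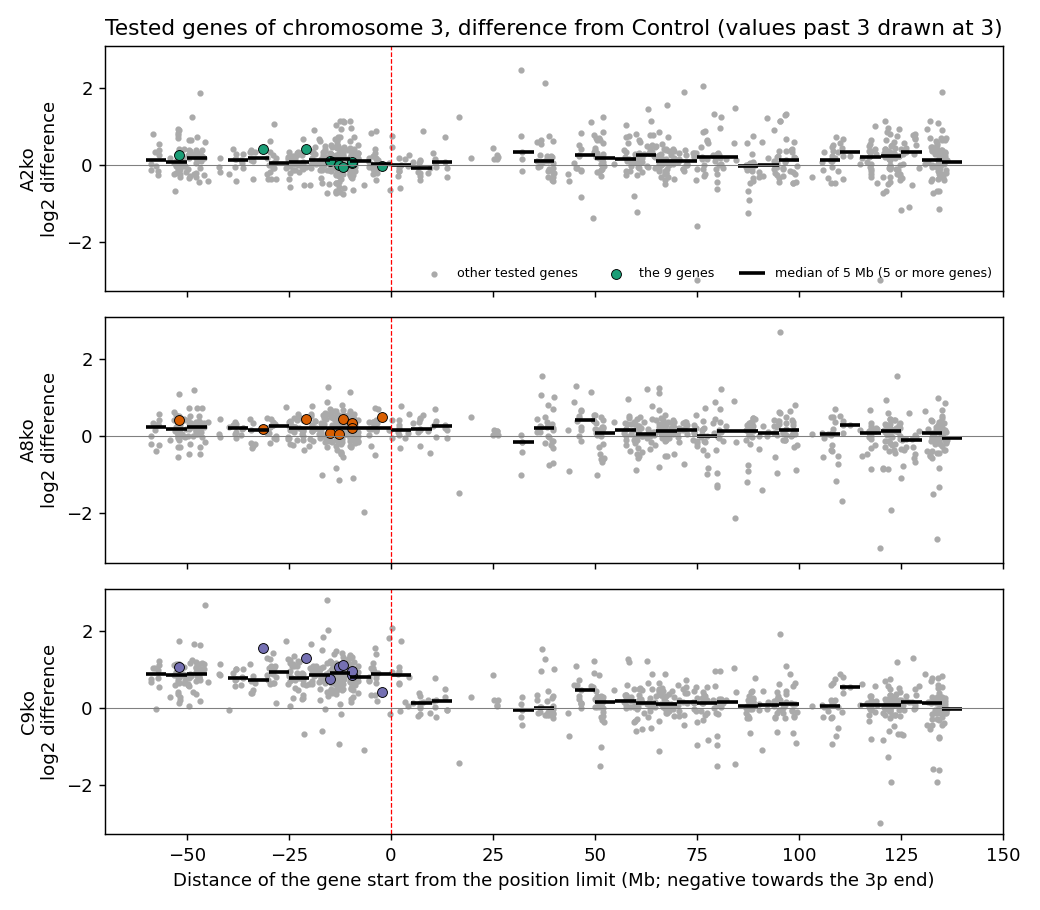
Log2(TPM + 1) difference from Control for tested genes of chromosome 3 in A2ko, A8ko and C9ko, against distance in Mb from the position limit, with the 9 genes as large points and bars at the median of each 5 Mb with 5 or more genes. In C9ko the median is 0.86 over all genes below the limit, which lies within 3p. It is 0.11 over all genes above the limit, and the first bar past the limit is still raised. In A2ko and A8ko the medians over the whole stretch are 0.12 and 0.21.

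A list of other 3p tumour suppressor candidates had 37 genes, of which 26 were tested and lay in the stretch. All 26 were above Control in C9ko, with log2(TPM + 1) differences from 0.49 (SEMA3F) to 2.80 (LTF) and a median of 0.83, near the 0.86 of the whole stretch, of which 93.0% lay above Control. They included XPC, a nucleotide excision repair gene, at 1.19. In A2ko the median of the 26 was 0.19 and in A8ko 0.16. Of the 3 tested candidates outside the stretch none was called higher in C9ko, with FOXP1 at 0.21 and GBE1 at 0.28 (limma adjusted p = 0.142 and 0.0572), and ROBO1 fell by 1.43 (limma adjusted p = 0.00100).

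Across the 7 distinct libraries, the 36 pairs of the 9 genes had Pearson's r from 0.493 to 0.985 with a median of 0.929, and the 28 pairs without FHIT had a median of 0.953. All pairs share the same libraries, and both C9ko libraries were the highest for each gene but FHIT. The C9ko values also set the position limit, and 93.0% of the stretch lay above the Control range in C9ko. No r is given for other genes of the stretch, so these r cannot show a trait particular to the 9 genes. Outside chromosome 3, the genes most like the mean centred profile of the 9 genes over the 7 libraries, among 9890 with a mean of at least 5 TPM, were ENTPD6 and XRN2 on chromosome 20 (r = 0.997 each), SLC25A51 on chromosome 9 (0.996), IL32 on chromosome 16 (0.995) and SEMA3C on chromosome 7 (0.995).

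For the partners and targets of the 9 proteins, in 12 lists, genes of the stretch were left out. The lists were chosen with earlier results of these data known, so their shares of calls only describe these data. C9ko was compared with Control by limma's moderated test on log2(TPM + 1), adjusted by Benjamini-Hochberg across the 17100 genes. Of these 29.5% were called at an adjusted p under 0.05, 22.0% higher and 7.42% lower. Outside the stretch 28.2% were called, 20.7% higher and 7.56% lower. Of 205 partner and target genes tested there, 91 were called, 71 higher and 20 lower. With median-of-ratios scaling, which moved the median C9ko difference of all genes from 0.11 to -0.0053, 48 were called higher and 31 lower. Over all genes the share of calls that were higher was 74.8% and became 54.6%. The labels do not say that replicates are separate cultures, so these p-values measure the spread between these samples, which may be technical. Counts of calls depend on a single library: without C9ko replicate 2, 3301 genes were called in place of 5038.

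**Figure D4:**
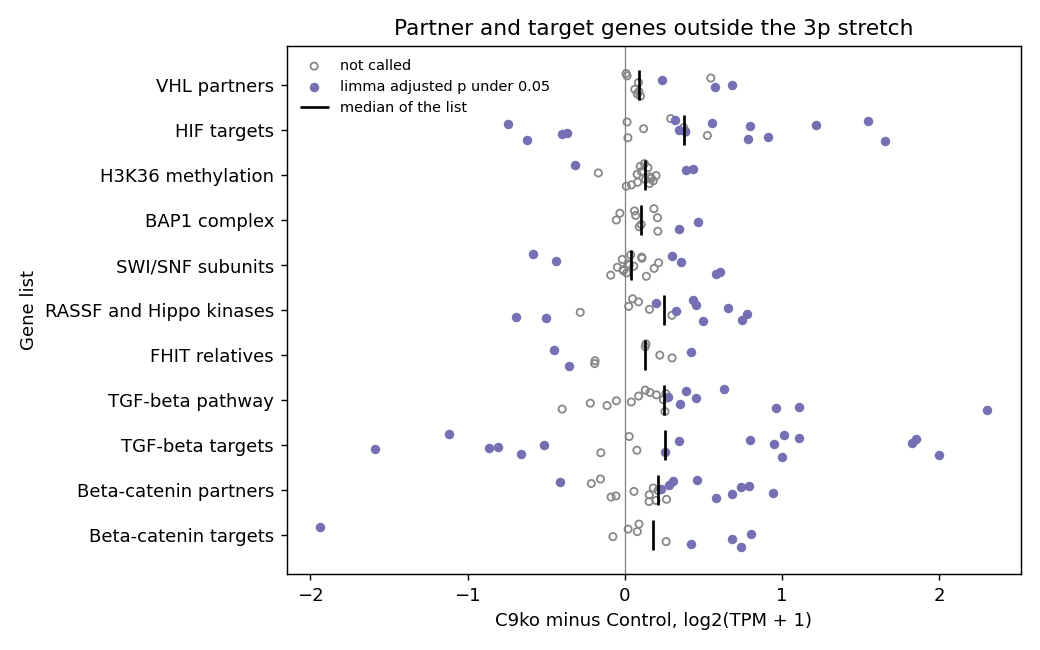
C9ko minus Control on the log2(TPM + 1) scale for the partner and target genes outside the stretch, for 11 of the 12 lists, with called genes filled and a bar at the list median. Medians lie between 0.04 and 0.37, against 0.11 for all tested genes, while single genes reach 2.30 and -1.94.

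The share called in C9ko was near the 28.2% of all genes outside the stretch for the VHL partners (27.3%), the SWI/SNF genes (28.6%) and the FHIT list (33.3%), so these counts are no result about those lists. It was 16.7% for histone H3 lysine 36 methylation and 18.2% for the BAP1 complex. With only 18 and 11 tested genes, these lower shares are no result about those lists either. The HIF targets (66.7%) and TGF-beta targets (84.2%) had the highest shares, in both directions. No test of a list was made.

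Of the VHL partners, 3 of 11 rose in C9ko and none fell (27.3% called, near the 28.2% of all genes outside the stretch). EPAS1 (HIF-2 alpha) had 46.3, 41.6 and 47.2 TPM in Control and 72.9 and 72.7 in C9ko, a log2(TPM + 1) difference of 0.68 ± 0.074 (SE; limma adjusted p = 0.000796). Of 21 HIF targets outside the stretch, 10 rose and 4 fell (66.7% called), so the list moved in both directions. CA9, a carbonic anhydrase, had 19.5, 16.9 and 18.3 TPM in Control and 58.2 and 60.6 TPM in C9ko, with A2ko at 9.99 and A8ko at 41.8 TPM. CA9 rose by 1.65 ± 0.0797 log2(TPM + 1) units in C9ko (SE; limma adjusted p = 3.48e-05). The genes within 5 Mb of CA9 had a median C9ko difference of 0.51, and CA9 overlaps ARHGEF39 on the other strand. P4HA2, a collagen prolyl hydroxylase, rose by 1.22 and ANGPTL4, a lipase inhibitor, by 1.55 log2(TPM + 1) units (limma adjusted p = 6.14e-05 and 0.000818). CA12, another carbonic anhydrase, fell by 0.62 in C9ko (limma adjusted p = 0.00846). In A8ko, VEGFA, the angiogenic growth factor, had 147 TPM against 46.4 to 49.4 in Control. In A2ko, CA12 was at 0.423 TPM against 3.98 to 4.60 in Control, and ENO2, an enolase, at 34.2 against 11.2 to 12.3.

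The letters ACGTG are a form of the core that HIF binds, and other forms were not searched. That motif, on either strand, occurs in 18.5% of all 35116 windows of 250 bases, and in a window of 13 of 20 HIF targets in the table, several of which have more than 1 window. Sites of 30 bases are shown for CA9 (chr9:35673898-35673927), ANGPTL4 (chr19:8363909-8363938) and ENO2 (chr12:6914450-6914479), all on the plus strand of GRCh38.p14, because these are HIF targets named here whose window holds the motif. The windows of P4HA2 and CA12, also named here, held no match to ACGTG. Capitals mark the ACGTG core or its reverse complement CACGT.
CA9: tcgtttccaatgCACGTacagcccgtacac
ANGPTL4: ggaaagaagagtCACGTctcccacggttcg
ENO2: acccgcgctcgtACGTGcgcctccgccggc
A match describes letters and does not show binding. Of the genes named from the lists, P4HA2 overlaps PDLIM4 on the other strand, and likewise ANGPTL4 overlaps RAB11B-AS1, PSIP1 SNAPC3, PHF1 CUTA, BRD9 TRIP13, SMARCD3 CHPF2, RASSF4 DEPP1, RASSF8 RASSF8-AS1 and TAGLN PCSK7. PTHLH overlaps an antisense gene that reached 51.8 TPM. ENO2 overlaps LRRC23 and BRD9 overlaps ZDHHC11 on the same strand.

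Of the chromatin lists, 2 of 18 genes of histone H3 lysine 36 methylation rose and 1 fell, with PSIP1, a reader of the mark, at 0.43 and PHF1, another reader, at -0.31 (limma adjusted p = 0.00575 and 0.0306). The call of PHF1 was lost without Control replicate 1 or 3 and without either C9ko library, with adjusted p from 0.0616 to 0.121. The genes within 5 Mb of PSIP1 had a median of 0.51. Of 11 BAP1 complex genes 2 rose, led by HCFC1, a cofactor bound by BAP1, at 0.47 ± 0.0738 log2(TPM + 1) units (SE; limma adjusted p = 0.00399). Of 21 SWI/SNF genes 4 rose and 2 fell. The shares called in these chromatin lists were 16.7%, 18.2% and 28.6% in turn, against 28.2% of all genes outside the stretch. Within the SWI/SNF list, SMARCA2, an ATPase of the remodeller, rose by 0.61 and BRD9, a bromodomain subunit, fell by 0.59. Genes within 5 Mb of these 2 had medians of 0.58 and -0.43, with the same sign as the gene in each case. SMARCD3, a further subunit, had 23.7 TPM in A2ko against 4.84 to 5.18 in Control.

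Of 16 RASSF and Hippo kinase genes 8 rose and 2 fell (62.5% called, against 28.2% of all genes outside the stretch). RASSF8 rose by 0.77 log2(TPM + 1) units and RASSF6 fell by 0.69 (limma adjusted p = 0.00448 and 0.0124), a call lost without C9ko replicate 1 (adjusted p = 0.0700). RASSF4 had 1.49 to 2.03 TPM in Control, 4.85 in A2ko and 6.63 in A8ko. Of 9 genes of the FHIT list 1 rose and 2 fell (33.3% called, near the 28.2% of all genes outside the stretch). APTX, a DNA repair protein of the same fold family, rose by 0.42, and its neighbours within 5 Mb had a median of 0.50. FDXR, on the list though a reductase of the mitochondrial electron chain for steroid synthesis, fell by 0.45, a call lost without C9ko replicate 2 (limma adjusted p = 0.0805).

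Of 20 TGF-beta pathway genes 8 rose and none fell. Of all genes outside the stretch, 20.7% were called higher and 7.56% lower. Calls over all genes thus leaned higher too, less so with median-of-ratios scaling, and no test of this list was made. TGFB2, a ligand of TGFBR2, had 6.74, 5.63 and 6.04 TPM in Control and 33.1 and 35.3 TPM in C9ko, with A2ko at 15.3 and A8ko at 14.5 TPM. It rose by 2.30 ± 0.0910 log2(TPM + 1) units in C9ko (SE; limma adjusted p = 1.84e-05), and genes within 5 Mb of it had a median of 0.00. LTBP2, a latent TGF-beta binding protein family member, rose by 1.11. Of 19 TGF-beta targets 10 rose and 6 fell (84.2% called). PMEPA1, a feedback inhibitor of the pathway, rose by 2.00, fibronectin (FN1) by 1.85, the actin-binding TAGLN by 1.83 and the cytokine IL11 by 1.02. ID1, an inhibitor of differentiation factors, fell by 1.59 and PTHLH, a hormone-related peptide, by 1.12. CCN2, a matrix protein, had 40.4 TPM in A2ko against 148 to 162 in Control.

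MYL9, a myosin light chain, had 11.3 to 13.8 TPM in Control and 32.4 and 31.0 TPM in C9ko, with A2ko at 65.4 and A8ko at 6.17 TPM, and a C9ko rise of 1.29 log2(TPM + 1) units (limma adjusted p = 0.000153). Of the paralogs of RHOA, RHOC rose by 0.52 (limma adjusted p = 0.00149), while RHOB differed by 0.08 (limma adjusted p = 0.550), and by -0.051 with median-of-ratios scaling and -0.020 without mitochondrially encoded genes. Of 21 beta-catenin partners 9 rose and 1 fell (47.6% called, against 28.2% of all genes outside the stretch). TCF7L1, a transcription factor partner, rose by 0.94, and JUP, the paralog of CTNNB1, fell by 0.42 (limma adjusted p = 0.00428). CTNNBIP1, an inhibitor of beta-catenin, had 19.8 TPM in A2ko against 48.3 to 56.5 in Control. Of 10 tested beta-catenin targets 4 rose and 1 fell (50.0% called, against 28.2% of all genes outside the stretch). The other 9 of the 19 listed targets did not reach 1 TPM in at least 2 distinct libraries. These were AXIN2, LGR5, NKD1, NKD2, SP5, NOTUM, LEF1, TNFRSF19 and BAMBI. EPHB3, an ephrin receptor, had 13.6, 13.7 and 15.9 TPM in Control, 3.04 in A8ko, and 2.43 and 3.69 in C9ko, and fell by 1.94 log2(TPM + 1) units. DKK1, a Wnt inhibitor, had 438 TPM in A2ko against 143 to 164 in Control.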

How the data were processed

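RNA-seq values of 9 samples (3 Control and 2 each of A2ko, A8ko and C9ko) were used as the TPM the authors deposited, per gene. Per the labels' protocols, TRIZOL extraction and a dUTP library method were used on polyA RNA. The build is hg38 per the submitters' processing notes. The aligner, the quantification tool and the annotation are not given in the sources used here. Positions are from GENCODE release 29 (GRCh38), found for 57342 of 78894 identifiers. Symbols were matched for 42165.

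The 9 genes, the position limit and the lists were chosen with earlier results of these data known. Values were analysed as log2(TPM + 1), with a pseudocount of 1, and the 4 groups were fitted together by limma 3.58.1 (R 4.3.3) with a trend. A call means a Benjamini-Hochberg adjusted p-value under 0.05. A2ko and A8ko have 1 library each, so no test was made. In simulated data with independent normal noise, 200 of 17100 genes were raised by 1 log2 unit in C9ko alone. Of these 91.0% were called, and 9.45% of calls were false, above the 0.05 set for calls. The real data had 5038 calls, in both directions, so these shares need not hold for them. Named list genes were those called with at least 1 log2 unit in C9ko, or else the largest called per direction, and the largest per direction past 1 log2 unit in A2ko and A8ko. RHOB, RHOC and JUP were named always. The files held no column of another sample. Alternatives were another pseudocount, filter, scaling, fit and each left-out library. TPM is a share, so a rise of abundant genes lowers others. Overlapping genes and paralogs may share reads. Some results of the lists are not reported here.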

Additional observations from a re-analysis of the deposited data

Results flagged for a closer look

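ROBO1, an axon guidance receptor on chromosome 3 above the position limit, moved in opposite directions in A2ko and A8ko. It had 1.66, 1.56 and 2.16 TPM in Control, 5.63 in A2ko and 0 and 0.0663 in C9ko, and A8ko listed it at 0. The A2ko and A8ko libraries differed by 2.73 log2(TPM + 1) units, with A2ko above and A8ko below every Control library. The difference was not tested, as each group has 1 distinct library.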

How the results depend on the processing

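The median C9ko difference of the 9 genes, 1.05 log2(TPM + 1) units, was 0.92 with median-of-ratios scaling, 0.96 without mitochondrially encoded genes, and 1.004 to 1.080 when each library was left out. PBRM1 in A2ko went from 0.08 to -0.037 with median-of-ratios scaling. The A2ko median of the 9 genes also went from 0.08 to -0.037, so PBRM1 was not the only one to change sign. In A8ko, 1 of the 9 genes (FHIT) passed 0.5 log2 units. That count was 0 with a mean of at least 5 TPM, with median-of-ratios scaling, at 1 log2 unit and without FHIT, and 0 to 2 when each library was left out. In C9ko, 5 genes passed 1 log2 unit with TPM as deposited. Fewer than 5 did with median-of-ratios scaling or without mitochondrially encoded genes, where the median of the 9 lay under 1. Counting differences of any size, which was chosen after seeing the data (as was leaving out FHIT), gave 4 genes in A2ko and 7 in A8ko. Genes called in C9ko numbered 5038, and 3301 to 4174 when each library was left out. With the replicate number as a block, 3248 genes and 53 of the 205 partner and target genes were called. Same-numbered Control and C9ko libraries did not deviate together (r = -0.04 across 17100 genes, which are not independent replicates), and the numbers are only shared, so the block is no pairing. The share of calls that were higher was 74.8%, 54.6% with median-of-ratios scaling and 60.4% without mitochondrially encoded genes. The call of PHF1 was lost with the block, with no filter, with no trend and without some libraries; its adjusted p by limma was 0.0306 and 0.0551 to 0.121 where lost. The calls of PSIP1, JUP and FDXR were lost with the block, those of BRD9, RASSF6 and FDXR with no filter, that of RASSF6 without C9ko replicate 1 and that of FDXR without C9ko replicate 2. The cause was not tested. Depth is unknown, so precision at low TPM, as for FHIT, cannot be given.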
